A study of Mus musculus with 2 samples.

Results

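The genes described here are 10 targets of the FOXO transcription factors that are known to rise when growth factor signalling is withdrawn: Ccng2, Pik3ip1, Txnip, Sesn1, Sesn3, Irs2, Klf2, Klf6, Bcl6 and Ddit4. They were chosen by name, and each was found once among the 32285 genes of the deposited tables. Single-cell RNA-seq was performed on THY-1+ germ cell cultures that had been established from the testes of C57 LacZ mouse pups to enrich spermatogonial stem cells, with fibroblasts of the STO line beneath them as feeders. FGF9-treated cells (1 library) were kept for 48 hours with 20 ng/ml FGF9, and control cells (1 library) for 48 hours with 0 ng/ml FGF. For growth of both cultures, though not for the treatment itself, the labels list GDNF (20 ng/ml), its receptor GFRA1 (150 ng/ml) and FGF2 (1 ng/ml), and the study describes a switch to serum-free medium that held either FGF9 or albumin. Both libraries share the genotype, the feeders and the labelled passages (9 to 12, though another label gives the FGF9-treated culture a slightly wider range), and the study describes cells at passage 12 that were plated on feeders before the change of medium, with 1 encapsulation per treatment of cells from 3 mice. Cells are not assigned to a mouse here, so the spread between mice does not enter any value.

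FOXO factors are the best known nuclear readout of the PI3K and AKT pathway. When a growth factor receptor or the insulin receptor activates PI3K, AKT phosphorylates FOXO proteins and they leave the nucleus; when the growth factor is withdrawn, FOXO proteins return to the nucleus and their targets rise. In the testis, FOXO1 marks gonocytes and spermatogonial stem cells and is needed for their maintenance. Neither phosphorylation nor the place of FOXO proteins in the cell was measured here, so the values below are RNA levels only.

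Barcodes were counted as germ cells when they held at least 2000 genes, at most 20% mitochondrial counts of unique molecular identifiers (UMIs, 1 per captured RNA molecule) and fewer than 40 UMIs of the fibroblast genes Vim and S100a6 together. That left 4537 of 5959 FGF9-treated barcodes and 4157 of 5312 control barcodes, with 67068085 and 67689739 UMIs and medians of 13067 and 14824 UMIs per cell. The 7 germ cell markers, among them Ddx4 and Dazl, summed to 3052 CPM (counts per 1000000 UMIs) in FGF9-treated cells and 3119 CPM in control cells, and none was at 0. The 7 feeder markers summed to 207 and 187 CPM in the same cells, against 8226 and 7285 CPM in the barcodes set aside as feeders (63 FGF9-treated and 31 control). The libraries shared 10 germ cell barcodes, and doublets were not removed. With 1 library per treatment there is no test between treatments: every interval below is a 95% interval of counting error only and does not cover the spread between cultures.

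Short stretches of the promoters are shown because a FOXO protein binds a forkhead sequence. RefSeq promoter windows on GRCm38.p6, which run from 250 bases before to 50 bases after a transcription start, were found for all 10 genes (12 starts). The letters GTAAACA, the core of the forkhead element, were searched on both strands. They occurred at 2 of the 12 starts (Txnip and 1 start of Sesn1), against 3.65% of all 32851 starts. The letters CAAAACA, the core of the insulin response sequence, occurred at 2 of the 12 starts (Ccng2 and Irs2), against 6.28% of all starts. The 2 motifs did not overlap each other at these genes. A match is a description of the letters and not of a bound site. The 250 bases before the Txnip start (chr3:96557707-96557956, plus strand) are printed first, and 30 bases around each other match follow, all 5′ to 3′ on the strand of the gene with the motif or its reverse complement in capitals. The Ccng2 window is chr5:93267546-93267575 (plus strand), the Irs2 window chr8:11008948-11008977 (minus strand), and the Sesn1 window chr10:41810585-41810614 (plus strand), where the match begins 22 bases after the start site.
Txnip: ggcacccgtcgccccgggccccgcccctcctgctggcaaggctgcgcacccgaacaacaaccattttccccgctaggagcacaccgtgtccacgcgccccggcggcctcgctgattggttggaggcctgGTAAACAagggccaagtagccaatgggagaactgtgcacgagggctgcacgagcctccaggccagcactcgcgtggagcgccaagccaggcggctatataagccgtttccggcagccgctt
Ccng2: cgtcgcagactCAAAACAaaaacaaggggt
Irs2: gagtcacgtgtTGTTTTGctcttagttcag
Sesn1: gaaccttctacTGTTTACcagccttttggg

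Over all germ cells, 1 of the 10 genes differed between the libraries by the rule used throughout: a log2 ratio of at least 0.5 in size, an interval that leaves out 0 and at least 10 CPM in a library. Bcl6 was lower in FGF9-treated cells. By the same rule 5.95% of the 8877 genes tested were lower and 5.78% were higher, so 1 of 10 is near the background. The median log2 ratio of the 10 genes was -0.28, beside -0.03 over all genes tested, and 7 of the 10 had an interval wholly below 0, beside 43.1% of all genes tested. Another 2 (Ccng2 and Klf2) lay wholly above 0, beside 32.8%, and the interval of Ddit4 held 0. No member was higher by the rule. The 10 ratios ran between -0.72 and 0.37.

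**Figure D1:**
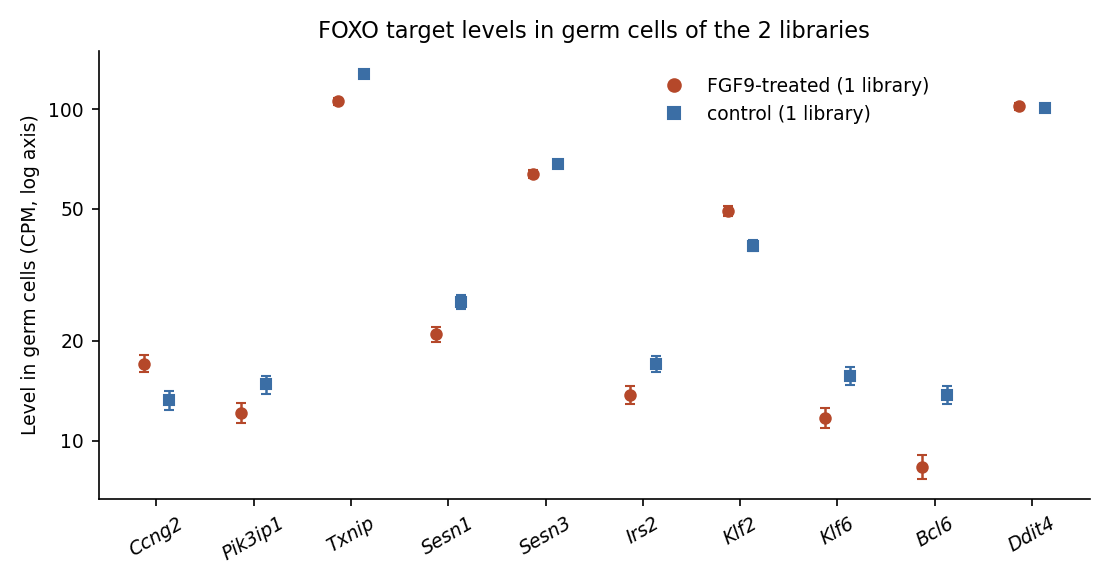
Level of each gene in CPM on a log axis, with FGF9-treated germ cells as circles and control germ cells as squares (1 library each) and exact Poisson 95% intervals of counting error. Bcl6 was at 8.36 CPM in FGF9-treated and 13.7 CPM in control cells, and Ddit4 was at 102 and 101 CPM.

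The 3 transcription factors among the genes went in different directions. Bcl6, a transcriptional repressor and a textbook FOXO target, was at 8.36 CPM (7.69 to 9.09) in FGF9-treated cells and 13.7 CPM (12.9 to 14.7) in control cells, from 561 and 930 UMIs. Its log2 ratio was -0.72 (-0.87 to -0.56), which was lower than that of all but 2.52% of the genes tested. Klf6, a zinc finger factor of the Krüppel-like family, was at 11.7 CPM (10.9 to 12.6) in FGF9-treated cells and 15.7 CPM (14.8 to 16.7) in control cells. Its ratio of -0.42 (-0.56 to -0.29) did not reach the rule. Klf2, a Krüppel-like factor that keeps naive T cells quiescent, was on the other side, at 49.4 CPM (47.8 to 51.1) in FGF9-treated and 38.8 CPM (37.3 to 40.3) in control cells, with a ratio of 0.35 (0.28 to 0.42). Klf6 is the member most sensitive to feeder cells: feeder barcodes held 247 CPM of Klf6 in the FGF9-treated library and 211 CPM in the control library, and with those barcodes kept among the cells its ratio was 0.03. With the stricter limit of 10 Vim and S100a6 UMIs its ratio was -0.43. Feeder markers stood in germ cells at 0.0638% (Col3a1) to 6.71% (Fn1) of their feeder level in the FGF9-treated library, and at 0.0284% (Col3a1) to 5.78% (Fn1) in the control library. At the Col3a1 shares feeder RNA would give 0.158 CPM of Klf6 in FGF9-treated and 0.0598 CPM in control cells, and at the Fn1 shares 16.6 and 12.2 CPM, against the 11.7 and 15.7 CPM measured. Which marker stands for feeder RNA was not tested.

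Among genes whose products restrain PI3K or mTORC1, Sesn3 and Ddit4 differed little between the libraries. Pik3ip1 and Sesn1 had lower levels in FGF9-treated cells, though over all germ cells by less than the rule asks. Pik3ip1, an inhibitor of the catalytic subunit of PI3K, was at 12.2 CPM (11.3 to 13.0) in FGF9-treated cells and 14.8 CPM (13.9 to 15.7) in control cells, a log2 ratio of -0.28 (-0.42 to -0.15). Sesn1 and Sesn3 encode sestrins, which restrain mTORC1 under stress or starvation. Sesn1 was at 21.0 CPM (19.9 to 22.1) in FGF9-treated and 26.3 CPM (25.05 to 27.5) in control cells, with a ratio of -0.32 (-0.43 to -0.22). Sesn3 was at 63.7 CPM (61.8 to 65.7) and 68.5 CPM (66.5 to 70.5), with a ratio of -0.10 (-0.16 to -0.04). Ddit4 (REDD1), which inhibits mTORC1 through the TSC complex and also answers to hypoxia and glucocorticoids, was at 102 CPM (99.7 to 105) in FGF9-treated and 101 CPM (98.8 to 104) in control cells. The interval of its ratio, -0.03 to 0.06, leaves room only for small differences in these libraries taken as a whole.

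The other 3 genes act on the cell cycle, on redox and glucose balance, and on insulin signalling. Ccng2 encodes cyclin G2, an unconventional cyclin linked to cell cycle arrest. It was at 17.1 CPM (16.1 to 18.1) in FGF9-treated and 13.3 CPM (12.4 to 14.2) in control cells, with a log2 ratio of 0.37 (0.24 to 0.49). Txnip encodes an arrestin that binds thioredoxin and limits glucose uptake. It was at 106 CPM (103 to 108) in FGF9-treated and 127 CPM (125 to 130) in control cells, with a ratio of -0.27 (-0.32 to -0.23). Irs2, the adaptor that couples insulin and IGF receptors to PI3K, was at 13.8 CPM (12.9 to 14.7) in FGF9-treated and 17.1 CPM (16.1 to 18.1) in control cells, with a ratio of -0.31 (-0.44 to -0.18). In each case the interval of the ratio left out 0, which was common over all genes tested (shares above), and the difference was smaller than the rule asks.

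Most cells showed few of these RNAs. After each cell was thinned at random to 5000 UMIs, Ddit4 was found in 39.1% (37.7 to 40.6) of FGF9-treated and 36.9% (35.4 to 38.3) of control cells, and Txnip in 38.7% (37.2 to 40.1) and 43.7% (42.2 to 45.2). Bcl6 was found in 4.52% (3.93 to 5.17) of FGF9-treated and 6.98% (6.22 to 7.80) of control cells. The remaining genes were found in 5.25% (Klf6) to 26.8% (Sesn3) of FGF9-treated cells and in 6.71% (Ccng2) to 28.7% (Sesn3) of control cells. Unthinned, Bcl6 was found in 11.1% of FGF9-treated and 19.0% of control cells. No cell type in these cultures is known to lack all of the genes, so no background level was available. Barcodes under 2000 genes (1234 FGF9-treated and 1034 control, medians of 1982 and 2066.5 UMIs) are given for reference only. Unthinned, Bcl6 was found in 1.13% and 0.870% of these barcodes, and Ddit4 in 5.75% and 4.35%. They held RNA of every one of the genes, and their medians lie below 5000 UMIs. Their shares therefore cannot be compared with those of germ cells at equal depth.

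After thinning, which draws the variance toward that of Poisson counts, counts per cell varied little more than Poisson counts do. Unthinned, where depth also differs between cells, the variance divided by the mean reached 2.04 in FGF9-treated and 2.08 in control cells, both for Ddit4. The variance of thinned UMIs divided by their mean lay between 0.974 (Bcl6) and 1.26 (Txnip) in FGF9-treated cells and between 1.01 (Sesn1) and 1.28 (Ddit4) in control cells. A thinned cell held RNA of a median of 2 of the 10 genes in both libraries, with means of 1.66 in FGF9-treated and 1.73 in control cells, and none of the 10 was found in 15.0% and 13.7% of cells. For each ordered pair of members, the level of the one was compared between cells with and without a UMI of the other. The interval of the log2 ratio held 0 in 84 of 90 such comparisons in FGF9-treated and 81 of 90 in control cells, with medians of 0.04 and 0.07. It lay above 0 in 6 and below 0 in 0 of the FGF9-treated comparisons, and above 0 in 7 and below 0 in 2 of the control ones. Each pair enters in both orders, intervals of the rarer genes are wide, and no share over other gene pairs was counted.

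More FGF9-treated cells carried RNA of a proliferation gene. At least 1 UMI of Mki67, a gene expressed in proliferating cells, was found in 37.8% (36.4 to 39.2) of FGF9-treated and 20.0% (18.8 to 21.2) of control cells, and after thinning in 25.9% (24.6 to 27.2) and 9.51% (8.64 to 10.4). The genes were therefore compared between the libraries within cells without Mki67 (2822 FGF9-treated and 3326 control) and within cells with it (1715 and 831). Within cells with Mki67, 6 of 7 tested proliferation genes were still higher in FGF9-treated cells (median log2 ratio 0.86). Without Mki67, 0 of 6 tested were higher (median 0.01). The cells with Mki67 are therefore not matched between the libraries for proliferation genes. Cells with Mki67 were also deeper, with medians of 16304 UMIs in FGF9-treated and 17865 in control cells, against 11696 and 14296.5 in cells without it. At equal depth, with every cell thinned to 5000 UMIs and the gate set on the thinned counts, the intervals are wider, and ratios that moved are given beside the results below.

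Among cells without Mki67, 2 of the 10 genes were lower in FGF9-treated cells and none was higher, beside 5.11% lower and 4.87% higher over 8854 genes. Klf6 was at 10.3 CPM (9.29 to 11.4) in FGF9-treated and 15.3 CPM (14.3 to 16.5) in control cells, with a log2 ratio of -0.57 (-0.76 to -0.39), and it lost this call when feeder barcodes were kept (ratio 0.0031). Bcl6 was at 9.06 CPM (8.10 to 10.1) and 14.6 CPM (13.5 to 15.6), with a ratio of -0.68 (-0.88 to -0.49). Ddit4 was at 121 CPM (117 to 125) in FGF9-treated and 105 CPM (102 to 107) in control cells, a ratio of 0.21 (0.15 to 0.27). Txnip, at 124 and 131 CPM, and Sesn3, at 66.9 and 67.0 CPM, had ratios of -0.08 (-0.14 to -0.03) and 0.00 (-0.08 to 0.08). So Txnip and Sesn3 were near equal in the 2 libraries once cells with Mki67 were set aside.

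Among cells with Mki67, 1 gene was lower in FGF9-treated cells and none was higher, beside 7.81% lower and 6.2% higher over 8885 genes. This was again Bcl6, at 7.57 CPM (6.63 to 8.60) in FGF9-treated and 11.3 CPM (9.72 to 13.0) in control cells, with a log2 ratio of -0.57 (-0.86 to -0.29). The call was lost at equal depth, where the Bcl6 ratio was -0.19 (-0.93 to 0.59) and the 1 member called was Txnip (-0.52, -0.76 to -0.27). It was also lost with a higher threshold for Mki67: with at least 3 Mki67 UMIs the ratio was 0.04 (-0.47 to 0.58), and Sesn1 (-0.51) and Irs2 (-0.63) were lower there instead. Txnip was at 84.5 CPM (81.3 to 87.8) in FGF9-treated and 117 CPM (112 to 122) in control cells, a ratio of -0.47 (-0.55 to -0.38), just short of the rule. Sesn3 was at 60.0 and 73.0 CPM, with a ratio of -0.28 (-0.39 to -0.18), and Ddit4 at 80.5 and 90.6 CPM, with a ratio of -0.17 (-0.26 to -0.08). At equal depth the ratio was -0.15 (-0.45 to 0.15) for Sesn3, -0.07 (-0.66 to 0.55) for Irs2 and -0.01 (-0.28 to 0.26) for Ddit4. The Pik3ip1 ratio moved from -0.42 (-0.67 to -0.17) unthinned to -0.15 at equal depth. Unthinned, 8 of the 10 intervals lay below 0, beside 37.8% of all genes tested, and 2 (Ccng2 and Klf2) above it, beside 26.1%.

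**Figure D2:**
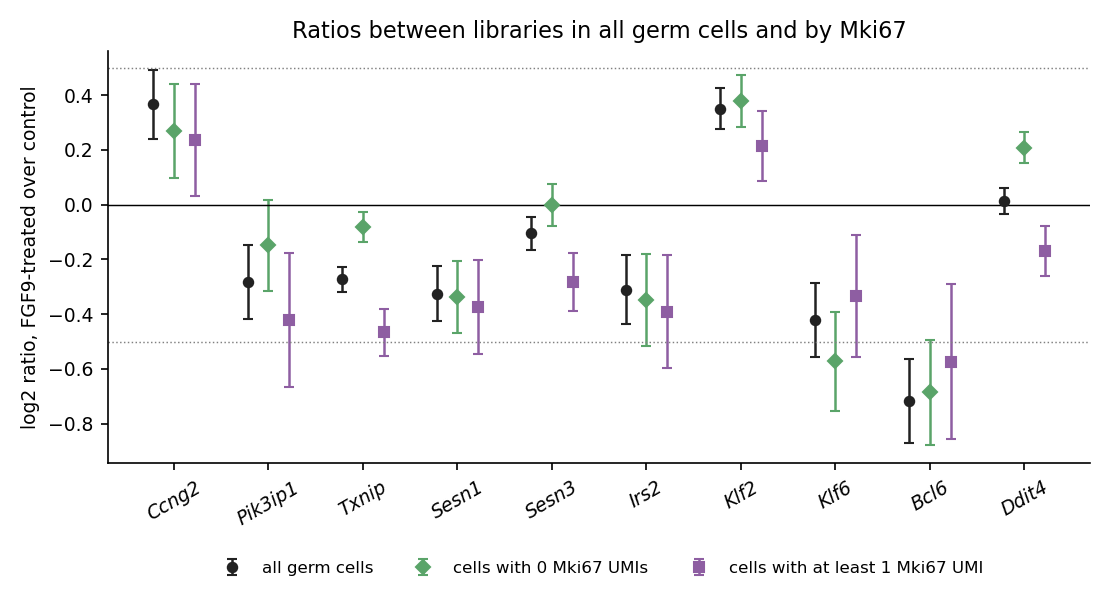
Log2 ratio of FGF9-treated over control CPM for each gene with its exact 95% interval, in all germ cells (circles), cells with 0 Mki67 UMIs (diamonds) and cells with at least 1 (squares); dotted lines mark the threshold of 0.5. Ddit4 lay at 0.21 without Mki67 and -0.17 with it, and Bcl6 was the lowest of the 10 in all 3 sets.

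The ratio between the libraries differed between cells with and without Mki67 for 4 of the 10 genes, by the interval of the difference itself. All 4 were below 0, beside 19.9% below and 15.2% above over the 8662 genes tested in both sets. The difference (with minus without Mki67) was -0.38 (-0.49 to -0.28) for Txnip, -0.38 (-0.49 to -0.27) for Ddit4, -0.28 (-0.41 to -0.15) for Sesn3 and -0.16 (-0.32 to -0.01) for Klf2. For Bcl6 it was 0.11 (-0.22 to 0.44) and for Klf6 0.24 (-0.04 to 0.52). Over 18 ways of processing, the difference stayed below 0 in 18 for Txnip (-0.45 to -0.16), Ddit4 (-0.49 to -0.17) and Klf2 (-0.29 to -0.06), and also for Pik3ip1 (-0.35 to -0.02), whose own interval (-0.57 to 0.02) held 0. For Sesn3 it was below 0 in 17 of 18, the exception being a gate on Top2a in place of Mki67 (0.04). The part of the unequal proliferation gene levels in cells with Mki67 was not tested.

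Within the FGF9-treated library, Txnip and Ddit4 were lower in cells with Mki67. In the FGF9-treated library Txnip was at 84.5 CPM in cells with Mki67 and 124 CPM in cells without it, a log2 ratio of -0.55 (-0.62 to -0.48). Ddit4 was at 80.5 and 121 CPM in the same cells, a ratio of -0.59 (-0.66 to -0.52). These 2 of the 9 members tested were lower and none was higher, beside 3.03% lower and 5.11% higher over 8804 genes. Both calls stayed at equal depth (-0.73 for Txnip and -0.57 for Ddit4), where Pik3ip1 (-0.53) was lower too. Both were lost with a gate on Top2a in place of Mki67, which gave -0.25 (-0.32 to -0.17) for Txnip and -0.35 (-0.43 to -0.28) for Ddit4. In the control library the Mki67 contrast gave -0.17 (-0.24 to -0.09) for Txnip, at 117 and 131 CPM, and -0.21 (-0.29 to -0.13) for Ddit4, at 90.6 and 105 CPM. There no member was lower and Ccng2 was higher, beside 0.172% lower and 1.92% higher over 8737 genes.

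Ccng2 and Irs2 were the members whose interval lay above 0 in cells with Mki67 over cells without it in both libraries. The Irs2 ratio was 0.22 (0.04 to 0.41) in FGF9-treated and 0.27 (0.08 to 0.45) in control cells. Ccng2 was at 20.1 CPM (18.6 to 21.8) in FGF9-treated cells with Mki67 and 14.5 CPM (13.2 to 15.8) in those without it, a log2 ratio of 0.48 (0.31 to 0.65). In control cells it was at 17.1 CPM (15.2 to 19.2) with Mki67 and 12.0 CPM (11.1 to 13.0) without it, a ratio of 0.51 (0.30 to 0.72). The interval of each ratio holds the threshold of 0.5, and the control call was lost under the other scalings. Between the libraries the Ccng2 ratio was 0.27 (0.10 to 0.44) without Mki67 and 0.23 (0.03 to 0.44) with it. At equal depth both intervals held 0, at 0.20 (-0.05 to 0.46) and 0.02 (-0.51 to 0.57).

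**Figure D3:**
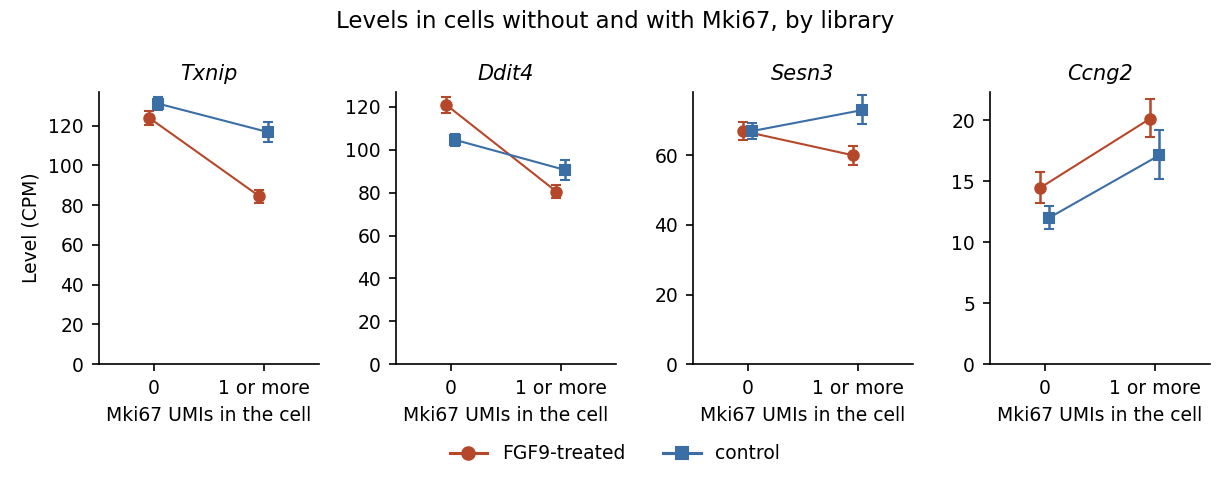
Level in CPM of Txnip, Ddit4, Sesn3 and Ccng2 in cells with 0 and with at least 1 Mki67 UMI, for FGF9-treated cells (circles) and control cells (squares), with exact Poisson 95% intervals and axes from 0. The lines cross for Ddit4, which was at 121 CPM without Mki67 and 80.5 CPM with it in FGF9-treated cells, against 105 and 90.6 CPM in control cells.

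Cell state was read from marker genes in 4 gates that do not overlap: cells with Kit or Stra8, which mark differentiating spermatogonia; of the others, cells with Neurog3, which marks progenitors; of the others, cells with both Gfra1 and Ret, the GDNF receptor genes of stem cells; and the rest. The gates held 506, 629, 1239 and 2163 FGF9-treated cells and 931, 1296, 217 and 1713 control cells. They are not cell types, since they move with depth and with marker levels that differ between the libraries: Gfra1 was at 58.6 CPM in FGF9-treated and 16.5 CPM in control cells, Ret at 104 and 34.9 CPM, Neurog3 at 14.4 and 44.6 CPM, and Kit at 3.04 and 13.4 CPM. Within a library no tested member was called against the rest gate in any of the other gates, which is near the background, since few genes were called at all, and Bcl6 was under 10 CPM and not tested in the FGF9-treated library. In the FGF9-treated library the shares of genes lower and higher were 0.127% and 0.53% in the Kit or Stra8 gate, 0.138% and 0.277% in the Neurog3 gate, and 0.0115% and 0.334% in the Gfra1 and Ret gate. In the control library they were 0.0458% and 0.355%, 0.0115% and 0.104%, and 2.24% and 4.43% in the same gates. Some intervals left out 0: in the FGF9-treated Neurog3 gate Pik3ip1 had a log2 ratio over the rest gate of 0.43 (0.14 to 0.71) and Ddit4 of -0.26 (-0.37 to -0.16).

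Bcl6 was lower in FGF9-treated cells in 3 of the 4 gates. It was at 9.44, 8.62, 9.22 and 7.30 CPM in the Kit or Stra8, Neurog3, Gfra1 and Ret, and rest gates of FGF9-treated cells, against 12.7, 14.8, 13.4 and 13.5 CPM in the same gates of control cells. The 4 FGF9-treated levels lay below the 4 control levels, and within each library neighbours in the order had intervals that overlap. The log2 ratio was -0.78 (-1.14 to -0.44) in the Neurog3 gate, where 6.03% of genes were lower and 6.46% higher. In the Gfra1 and Ret gate it was -0.54 (-1.0 to -0.05), beside 6.66% and 4.75%, and in the rest gate -0.89 (-1.15 to -0.64), beside 5.93% and 5.77%. The Kit or Stra8 gate, with 7.07% of genes lower and 6.62% higher, gave -0.43 (-0.80 to -0.07) and had no member called. The difference between the Kit or Stra8 gate and the rest gate was 0.46 (0.03 to 0.90). For this and the other differences between gates given below, no share over all genes was counted.

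Of the other members, Klf6 was called in the Neurog3 gate, at 10.7 CPM in FGF9-treated and 18.2 CPM in control cells, a log2 ratio of -0.77 (-1.09 to -0.46). This ratio was lower than that in the rest gate by 0.48 (0.11 to 0.86). Sesn1 was called in the Gfra1 and Ret gate, at 21.6 CPM in FGF9-treated and 34.5 CPM in control cells, a ratio of -0.68 (-0.97 to -0.38) that rests on 124 control UMIs. It differed from the ratio in the rest gate by -0.28 (-0.62 to 0.05), so a difference between these gates was not detectable at this depth. No member was higher by the rule in any gate.

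Without regard to size, the 4 FGF9-treated gate levels lay wholly below the 4 control levels for 5 members (Txnip, Sesn1, Irs2, Klf6 and Bcl6) and wholly above them for 2 (Ccng2 and Klf2). Over the 8877 genes tested the same held for 24.2% below and 17.1% above, and gates of 1 library share their culture, so these are not 4 replicates. Txnip was at 95.6 to 116 CPM in FGF9-treated and 127 to 131 CPM in control gates, and Irs2 at 13.2 to 14.1 and 16.4 to 18.9 CPM. Klf2 was at 43.7 to 52.9 CPM in FGF9-treated and 37.5 to 42.3 CPM in control gates. Pik3ip1, Sesn3 and Ddit4 overlapped between the libraries. The Sesn3 ratio was 0.05 (-0.08 to 0.18) in the Neurog3 gate and -0.15 (-0.25 to -0.05) in the rest gate, a difference of 0.20 (0.04 to 0.36). Ddit4 had a log2 ratio of -0.23 (-0.34 to -0.12) in the Neurog3 gate and -0.19 (-0.34 to -0.04) in the Gfra1 and Ret gate, against 0.08 (0.00 to 0.16) in the rest gate and 0.00 (-0.12 to 0.12) in the Kit or Stra8 gate.

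**Figure D4:**
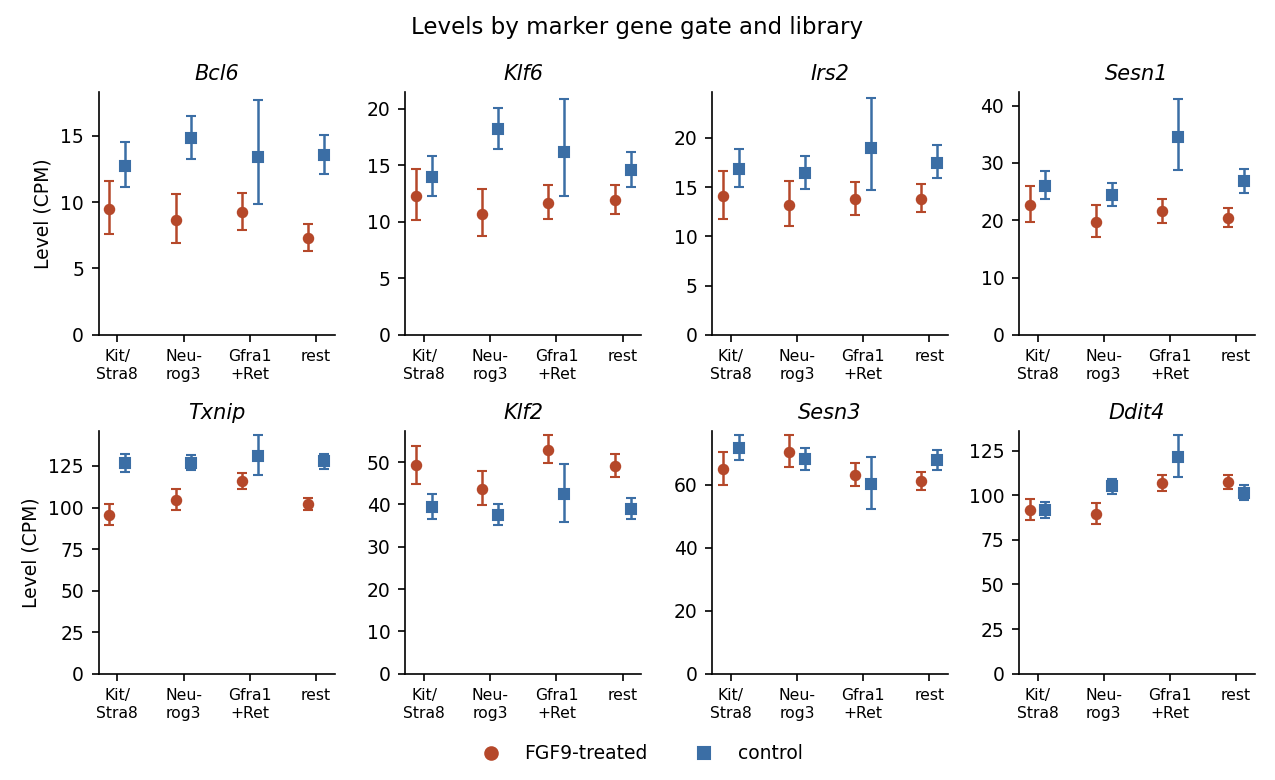
Level in CPM, with exact Poisson 95% intervals and axes from 0, of 8 of the genes in the 4 marker gene gates, for FGF9-treated cells (circles) and control cells (squares). Bcl6 lay between 7.30 and 9.44 CPM in the FGF9-treated gates and between 12.7 and 14.8 CPM in the control gates, while Sesn3 and Ddit4 overlapped.

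Among the 8 sets by state gate and Mki67, the most members were called in cells of the rest gate with Mki67 (743 FGF9-treated and 281 control cells), where 4 were lower and none was higher, beside 10.7% lower and 7.21% higher over 8893 genes. Bcl6 was at 5.79 CPM in FGF9-treated and 13.7 CPM in control cells there, a log2 ratio of -1.24 (-1.76 to -0.73). Txnip was at 76.5 and 117 CPM, a ratio of -0.62 (-0.77 to -0.46). Sesn1, at 20.8 and 30.2 CPM, had a ratio of -0.53 (-0.84 to -0.22), and Irs2, at 15.0 and 21.5 CPM, had -0.52 (-0.88 to -0.15). In cells of the Neurog3 gate without Mki67, Irs2 (-0.50), Klf6 (-0.90) and Bcl6 (-0.63) were lower, beside 5.89% lower and 5.99% higher over all genes, and in those with it Klf6 was lower (-0.66), beside 8.3% and 7.12%. In the Gfra1 and Ret gate Sesn1 (-0.73) and Klf6 (-0.59) were lower without Mki67, beside 6.18% and 3.89%, and no member with it, beside 6.31% and 4.78%, where the control side held only 38 cells. In the Kit or Stra8 gate Bcl6 was lower without Mki67 (-0.62), beside 6.26% and 6.09%, and Txnip with it (-0.53), beside 8.78% and 6.67%. In the rest gate without Mki67 Bcl6 was lower (-0.69), beside 5.07% and 4.55%. None of these 8 sets of cells had a member that was higher. Ddit4 was at 125 CPM in FGF9-treated and 103 CPM in control cells of the rest gate without Mki67, and at 82.1 and 95.3 CPM in those with it.

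The response to FGF inside a library was read from the ERK target genes Etv4, Etv5 and Dusp6. At least 1 of their UMIs was found in 40.2% of thinned FGF9-treated cells and 4.30% of thinned control cells. In FGF9-treated cells no member was called between cells with and without such a UMI, beside 0.16% of genes lower and 0.263% higher. Bcl6 was at 10.2 CPM with and 8.38 CPM without them (log2 ratio 0.29, -0.12 to 0.70), and Txnip at 102 and 114 CPM (-0.17, -0.29 to -0.05). Mki67 was found in 26.9% of the FGF9-treated cells with such a UMI and 25.2% of those without. In control cells no member was called either, beside 2.43% lower and 2.91% higher, but only 178 cells carried such a UMI. Ddit4 was at 133 CPM in those and 101 CPM in the others (0.39, 0.11 to 0.66). Txnip was at 154 and 125 CPM in the same control cells (0.30, 0.05 to 0.55). In FGF9-treated cells Ddit4 was at 101 CPM with such a UMI and 111 CPM without (-0.13, -0.25 to -0.01). Both genes thus pointed in opposite directions in the FGF9-treated and control libraries.

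The FOXO genes themselves were not level between the libraries. Foxo1, the main FOXO of the germ line, was at 120.4 CPM in FGF9-treated and 182 CPM in control cells, a log2 ratio of -0.59 (-0.63 to -0.55), and was lower by the rule both without Mki67 (-0.54) and with it (-0.63). Foxo3 was at 43.0 and 59.6 CPM, with a ratio of -0.47 (-0.54 to -0.40). Foxo6 was at 25.6 and 23.2 CPM, with a ratio of 0.14 (0.04 to 0.24), and Foxo4 had under 10 CPM in both libraries and was not tested. Of the 3 tested FOXO genes, 1 was lower and none was higher.

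Of 16 further FOXO targets tested, out of 24 listed, 2 were lower and none was higher, with a median log2 ratio of -0.18. For this and the other lists, the shares of all genes lower and higher over all germ cells are those given above. Fbxo32, which encodes the ubiquitin ligase atrogin-1, was at 108 CPM in FGF9-treated and 198 CPM in control cells, a ratio of -0.88 (-0.92 to -0.84). Bnip3, which acts in mitophagy, was at 67.5 and 101 CPM, a ratio of -0.58 (-0.64 to -0.53). Cited2, a transcriptional coregulator, and Sod2, the mitochondrial superoxide dismutase, had ratios of -0.47 (-0.53 to -0.41) and -0.46 (-0.49 to -0.42). The tested genes with a ratio above 0 included none past 0.5. Those with an interval wholly above 0 were Pmaip1 at 0.41 (0.33 to 0.49), Bcl2l11 at 0.36 (0.23 to 0.50), Btg1 at 0.32 (0.25 to 0.39) and Cat at 0.12 (0.02 to 0.22).

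Of 15 PI3K and AKT enzymes tested, 4 were higher in FGF9-treated cells and 1 was lower. Pik3cd, a catalytic subunit of PI3K, was at 13.5 CPM in FGF9-treated and 5.79 CPM in control cells, a log2 ratio of 1.23 (1.05 to 1.40). Pik3r1, the main regulatory subunit, was at 14.0 and 7.58 CPM (0.89, 0.73 to 1.05), and Sgk3, a kinase related to AKT, at 140.5 and 76.2 CPM (0.88, 0.83 to 0.93). The other higher gene was Pik3ca (0.54). Akt1 was the lower one, at 36.9 and 55.7 CPM (-0.59, -0.67 to -0.52). Of 7 inhibitors tested, Tsc1 (-0.71) and Trib3 (-0.81) were lower and Inppl1 (0.58) was higher; Inpp4a had a ratio of 0.28 (0.13 to 0.42). Of 3 receptors and adaptors tested, Gab1 was lower (-0.60), and the others were Igf1r (0.23) and Igf2r (0.16).

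Genes that other signals also drive were counted beside the FOXO targets. Of 9 ERK targets tested, 8 were higher, with a median log2 ratio of 1.83, among them Spry4 (5.33), Etv4 (4.45), Etv5 (4.02) and Dusp6 (3.18). Of 8 hypoxia targets, a list to which Bnip3 also belongs, 6 were higher and Bnip3 was lower; Adm, a vasodilator peptide gene, was at 36.6 CPM in FGF9-treated and 2.78 CPM in control cells (3.72, 3.51 to 3.94), with Ankrd37 (1.92), Ldha (1.23) and Pgk1 (1.17) next. All 7 proliferation genes were higher, led by Rrm2 (1.83). Of 7 other Krüppel-like factors, Klf7 (-0.72) and Klf11 (-0.55) were lower, Klf10 (0.82) was higher, and Klf3 had 0.27. Arrdc4, a paralogue of Txnip that the sugar sensor MondoA also drives, was at 46.2 and 41.8 CPM (0.14, 0.07 to 0.22).

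**Figure D5:**
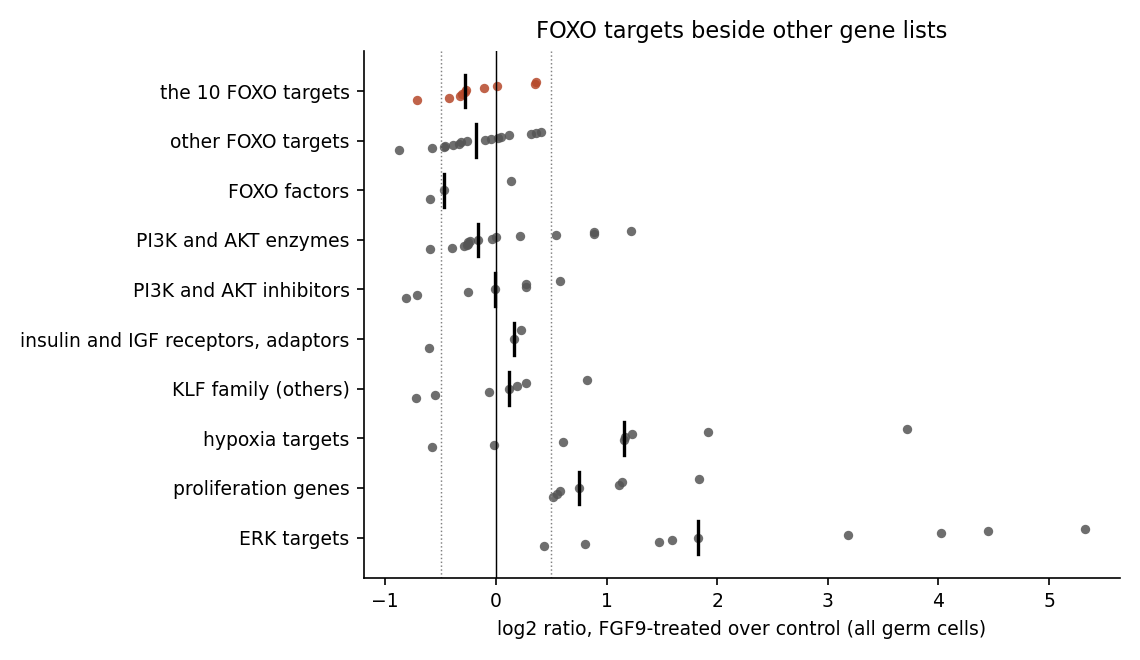
Log2 ratio of FGF9-treated over control CPM in all germ cells, 1 point per tested gene and a bar at the median of each list; dotted lines mark the threshold of 0.5 either way. The 10 FOXO targets had a median of -0.28, the other FOXO targets -0.18, the FOXO factors -0.47 and the ERK targets 1.83.

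Other lists hold genes that further signals drive. Of 8 p53 targets, Cdkn1a (0.53) was higher and Bbc3 (-0.50) lower, with Trp53inp1 at -0.35 and Aen at -0.34. Of 4 ATF4 targets, Trib3 was lower, and Psat1 (0.40), Phgdh (0.38) and Asns (-0.13) were not called. Of 5 glucocorticoid targets, Per1 was lower (-0.60), and Fkbp5 (0.38), Tsc22d3 (-0.31) and Sgk1 (-0.23) were not called. Of 12 immediate early genes, which cell dissociation can also raise, Fos (1.23), Zfp36 (0.71) and Ier2 (0.67) were higher and Jun (-1.01), Hspa1a (-0.91) and Btg2 (-0.63) lower. Since Klf2 and Klf6 are themselves early response genes, these values stand beside theirs, and the part of dissociation was not tested.

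Across the 16 sums of library, state gate and Mki67 gate, which share libraries and differ in depth, the genes most like Bcl6 among 6146 candidates were Foxo3 (Pearson r 0.89) and Maco1 (0.89) on log2 of CPM plus 1. Foxo3 was at 43.0 CPM in FGF9-treated and 59.6 CPM in control cells, and Maco1 at 218 and 251 CPM. Among the members, Irs2 and Klf6 (r 0.81) and Irs2 and Sesn1 (0.80) varied most alike, and Ccng2 and Txnip varied most in opposite directions (-0.77).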

How the data were processed

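Polyadenylated RNA was measured with a 3′ droplet kit (Chromium v3.1), whose counts do not scale with transcript length. The authors deposited raw UMI counts per gene and barcode (unit: counts), made against mm10; the matrix header gives Cell Ranger software version 3.1.0, and the submitters' processing notes name Seurat 3.1 for later steps. KIT antibody tag counts were not used. Counts were summed over cells and divided by the summed gene UMIs (CPM). A ratio is the log2 of CPM in FGF9-treated cells over CPM in control cells (in a within-library contrast, of cells with the marker over cells without), with exact conditional binomial intervals, CPM has exact Poisson intervals, and shares have Clopper-Pearson intervals, all at 95%. UMIs per germ cell had medians of 13067 and 14824. A gene counts as tested at 10 CPM or more in one side. The 10 genes, the lists and the alternatives were chosen with earlier results of these data known. Named are the 10 genes, up to 4 tested genes per list by size of ratio, and the 2 genes most like each member called over all germ cells. More are named where a few called genes, or the further FOXO targets with intervals above 0, are given in full. Those were named after their values were seen. The intervals and calls were tested on simulated Poisson counts, which is the counting model that they assume. Spread between cells or cultures was not simulated. Alternatives covered scaling, cell filters, thinning, gates and thresholds. Differences of ratios use normal intervals from the counts. Calculations ran in Python 3.11.15 (pandas 2.3.3, scipy 1.17.1, numpy 2.4.6, matplotlib 3.10.9), with edgeR 4.0.16 under R 4.3.3 for scaling factors only.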

Additional observations from a re-analysis of the deposited data

Results flagged for a closer look

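Ddit4 is listed because its ratio between the libraries pointed in opposite directions in subsets of the cells. It was -0.17 on the log2 scale in cells with Mki67 and 0.21 in cells without it, and -0.23 in the Neurog3 gate and -0.19 in the Gfra1 and Ret gate against 0.0805 in the rest gate. The intervals of these differences left out 0 and cover counting error only. With every cell thinned to 5000 UMIs, the ratio with Mki67 was -0.01 and its interval held 0. The difference between cells with and without Mki67 was then -0.17, and no interval was computed for it. Opposite directions by Mki67 were thus not seen at equal depth. Unthinned, the ratio without Mki67 was -0.07 (-0.21 to 0.07) in the Neurog3 gate. It was 0.03 (-0.14 to 0.21) in the Gfra1 and Ret gate and 0.28 (0.19 to 0.37) in the rest gate. In the same order it was -0.36, -0.45 and -0.22 with Mki67, each with an interval below 0. Within either Mki67 set, no intervals lay on opposite sides of 0 among these gates.

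Barcodes outside the germ cells also carried differences. In feeder barcodes (63 FGF9-treated and 31 control) the ratio was 0.66 for Ccng2, 1.90 for Txnip, 0.51 for Sesn3 and 0.56 for Klf2, where 5.79% of genes were higher and 13.8% lower; Bcl6 was also lower there (-1.72), from 9 and 11 UMIs. A single FGF9-treated feeder barcode held 384 of the 724 Txnip UMIs, and without it the Txnip ratio was 0.86 (0.49 to 1.25). Without the highest barcode of each, Klf2 had 0.26 (-0.14 to 0.67), Ccng2 0.56 (-0.01 to 1.17) and Sesn3 0.46 (0.13 to 0.80). In barcodes under 2000 genes the ratio was 0.79 for Sesn3, 1.47 for Klf2 (48 and 15 UMIs) and 0.60 for Ddit4, where 28.5% of all tested genes were higher, 1.14% lower and the median of all was 0.39.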

How the results depend on the processing

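Of 764 alternative values under 21 settings, 676 were labelled the same, 86 moved and 2 reversed. A ratio of a gene was the same when it lay inside the counting interval of its main value. It was reversed only when its main value met the rule and the sign changed. Smaller ratios that changed sign are therefore not among the reversed ones. Klf6 reached 0.03 over all germ cells and 0.07 with Mki67, and Klf2 with Mki67 reached -0.02. With 1 library per treatment no value speaks of other cultures. Bcl6 stayed the only lower gene over all germ cells under all scalings, cell filters and thinning. No member (0) was lower there at a minimum of 50 CPM, which only 3 members reach, or at a log2 threshold of 1; 2 were lower with the Mki67 shares of control in both libraries. At a threshold of 0.25, chosen after seeing the data, 6 were lower (18.8% of all genes) and 2 higher (14.2%); without Mki67 4 were lower and 2 higher, with it 7 were lower, 24 calls arose over the gates and 2 over the ERK gates, 2 were higher in cycling cells of either library and 1 lower in those of control. Without the feeder filter the median of the members was -0.10, Klf6 without Mki67 reversed to 0.0031, leaving 1 lower there, and 1 was lower in cycling FGF9-treated cells. A minimum of 50 CPM or a threshold of 1 left 0 calls without Mki67, with it and over the gates, and a threshold of 1 left 0 lower in cycling FGF9-treated cells. Bcl6 with Mki67 reversed to 0.038 at 3 Mki67 UMIs, where 2 others (Sesn1 and Irs2) were lower. After thinning, the Mki67 gate gave 0 lower with Mki67. With all cells thinned, the 1 lower there was Txnip in place of Bcl6. This gate and that of 3 UMIs each gave 1 lower in cycling control cells. A Top2a gate gave 1 lower among non-cycling cells, and 0 lower in cycling FGF9-treated cells. Ccng2 in cycling control cells had 0 calls under median-of-ratios scaling, TMM, totals without mitochondrial and ribosomal genes, per-cell means, no feeder filter, no barcodes over 2.5 times the median, 50 CPM, the threshold of 1 and Top2a. In cycling FGF9-treated cells 1 was higher under TMM, without those barcodes, and with the thinned, Top2a and 3-UMI gates. The ERK gates gave 1 call with the stricter gene and mitochondrial filter, without the feeder filter, at 10 Vim and S100a6 UMIs and without shared barcodes. The unthinned difference in the share of cells with a UMI (median over members) was -5.50 percentage points, against -1.39 thinned. The causes were not tested. No paired analysis was possible because each treatment has 1 library.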
